A study of Brachypodium distachyon with 6 samples.

Results

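The circadian clock genes described here are 5 loci of Brachypodium distachyon, measured by RNA sequencing in whole roots: LHY (BRADI_3g16515v3), TOC1 (BRADI_3g48880v3), GI (BRADI_2g05226v3), PPD1 (BRADI_1g16490v3) and ELF3 (BRADI_2g14290v3). They were chosen by locus identifier, and all 5 were among the 29627 features of the deposited count table and among the 23694 that passed the filter on low counts. The names came with that choice of loci: neither the table nor the RefSeq gene table used here pairs these identifiers with a name. For the same reason other clock genes, and markers that would check the root tissue, were not analysed here.

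All plants were of the inbred line Bd21, the reference line of this model grass. Seedlings 7 days old were moved to hydroponic tanks of 4.5 L and grown for 19 days at 2.5 mM nitrogen, supplied as 1.25 mM (NH4)2SO4 to the ammonium group and as 1.25 mM Ca(NO3)2 to the nitrate group. The counter-ion therefore changed together with the nitrogen source. Each group had 3 libraries, and each library came from a pool of 12 seedlings. The p-values rest on pool-to-pool spread, part of which may be technical. The labels do not say whether pools came from separate tanks. If the pools of a treatment shared a tank, this spread lacks differences between tanks and the p-values are too small. Tank and nitrogen source could then not be told apart. The labels also give no hour of harvest.

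The plant circadian clock is a loop of genes that repress one another in turn over the day. In Arabidopsis, LHY is a MYB-type repressor whose transcript peaks around dawn, and TOC1 is a pseudo-response regulator expressed in the evening that represses LHY. GI, which also peaks late in the day, encodes a large protein that helps to set the stability of clock proteins and promotes flowering in long days, and ELF3 is a scaffold of the evening complex, a night-time repressor of transcription. PPD1 is a pseudo-response regulator known in wheat and barley as a major locus of the flowering response to day length. The transcripts of such genes can differ strongly between hours of the same day, so the spread between pools of the same treatment was examined along with the nitrogen comparison.

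Library totals were 27525771 to 29547877 counts in ammonium roots and 22470936 to 29115598 counts in nitrate roots. The libraries numbered 3 of both treatments stood apart from the other 4 libraries: on the second principal component, which held 7.2% of the variance of log2 CPM over all tested features, they lay at -29.7 (ammonium) and -24.3 (nitrate), and the others lay between 10.9 and 17.4. For each gene and each LHY ratio, the nitrogen comparison is given with and without these libraries.

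Between nitrogen sources, 1 of the 5 clock genes passed the test. PPD1 was higher in ammonium roots, and LHY, TOC1, GI and ELF3 did not pass. Over all tested features 41.4% were called at an adjusted p under 0.05 (edgeR quasi-likelihood test, Benjamini-Hochberg adjustment over 23694 features), 19.2% as higher and 22.2% as lower under ammonium, so a count of 1 in 5 does not exceed the background. The median absolute log2 fold change was 0.07 over the 5 genes and 0.32 over all tested features. In whole roots, fewer cells that express a gene and less RNA per cell cannot be told apart.

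PPD1, the day-length gene, stood at 4.08, 4.99 and 5.78 CPM (read counts scaled to a library total of 1000000, in libraries 1, 2 and 3) in ammonium roots, against 2.17, 2.81 and 3.34 CPM in nitrate roots. Each ammonium library was above every nitrate library, a separation found for 54.4% of all tested features. The means were 4.95 ± 0.851 CPM in ammonium roots and 2.77 ± 0.589 CPM in nitrate roots (SD, n = 3 each), and the fitted level was 1.79 times as high under ammonium (log2 fold change 0.84, SE 0.20, edgeR adjusted p = 0.011). Between libraries of the same number the ammonium level was 1.88, 1.77 and 1.73 times the nitrate level. No label pairs these libraries, and each ratio carries the counting error of few reads, so the narrow range is not read as a sign of a steady effect.

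The PPD1 libraries held few reads, 121 to 160 in ammonium roots and 62 to 76 in nitrate roots. Summed and scaled over libraries, the PPD1 counts gave a ratio of 1.81 (exact 95% interval 1.53 to 2.14). This interval holds counting error alone, since it rests on summed counts and leaves out the spread between pools. No molecular identifiers are described for these libraries, so duplicate reads may make it too narrow. Counting alone gives a coefficient of variation of 8.51% for PPD1 in ammonium libraries and 12.0% in nitrate libraries, where 17.2% and 21.2% were observed. With libraries 1 and 2 of each treatment only, an alternative chosen after seeing the data, the PPD1 log2 fold change was 0.88 (edgeR adjusted p = 0.010).

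LHY, the dawn gene, stood at 546, 572 and 544 CPM in ammonium roots, against 570, 517 and 479 CPM in nitrate roots. The groups overlapped. Its mean was 554 ± 15.9 CPM in ammonium roots and 522 ± 45.9 CPM in nitrate roots (SD, n = 3 each), and the log2 fold change of 0.09 (SE 0.09, edgeR adjusted p = 0.48) was within the spread between replicates. The 95% interval of the LHY fold ran from 0.919 to 1.23. With libraries 1 and 2 of each treatment only, the log2 fold change was 0.06 for LHY (edgeR adjusted p = 0.61) and 0.13 for ELF3 (edgeR adjusted p = 0.23).

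ELF3, the evening complex scaffold, stood at 44.3, 42.5 and 45.2 CPM in ammonium roots, against 41.6, 38.7 and 46.2 CPM in nitrate roots. The ammonium libraries lay inside the range of the nitrate libraries. ELF3 differed by 0.06 on the log2 scale (SE 0.09, edgeR adjusted p = 0.60), with a 95% interval of the fold from 0.911 to 1.20. LHY and ELF3 thus had the narrowest fold intervals of the 5 genes.

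TOC1, the evening repressor, stood at 24.4, 20.3 and 14.7 CPM in ammonium roots, against 21.9, 20.9 and 18.1 CPM in nitrate roots. The nitrate libraries lay within the range of the ammonium libraries, and in both treatments library 3 was the lowest. TOC1 differed by -0.04 on the log2 scale (SE 0.17, edgeR adjusted p = 0.88), with a 95% interval of the fold from 0.745 to 1.28. Without ammonium replicate 3 it was 0.13, without nitrate replicate 1 it was 0.02, and with libraries 1 and 2 of each treatment only it was 0.081, so these data give TOC1 no direction between nitrogen sources.

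GI, the late-day gene, stood at 124, 131 and 331 CPM in ammonium roots, against 167, 139 and 255 CPM in nitrate roots. Library 3 was the highest in both treatments, and the nitrate libraries lay within the range of the ammonium libraries. The means, 196 ± 117 CPM in ammonium roots and 187 ± 60.5 CPM in nitrate roots (SD, n = 3 each), were close beside that spread. GI differed by 0.07 on the log2 scale (SE 0.38, edgeR adjusted p = 0.90), and the 95% interval of the GI fold, from 0.580 to 1.89, reaches well to both sides of no change. Without ammonium replicate 3 the GI log2 fold change was -0.55 (edgeR adjusted p = 0.073), and without nitrate replicate 3 it was 0.35 (edgeR adjusted p = 0.52). It was -0.24 (edgeR adjusted p = 0.083) with libraries 1 and 2 of each treatment only, and also below 0 without nitrate replicate 1 (-0.01) or nitrate replicate 2 (-0.11).

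**Figure D1:**
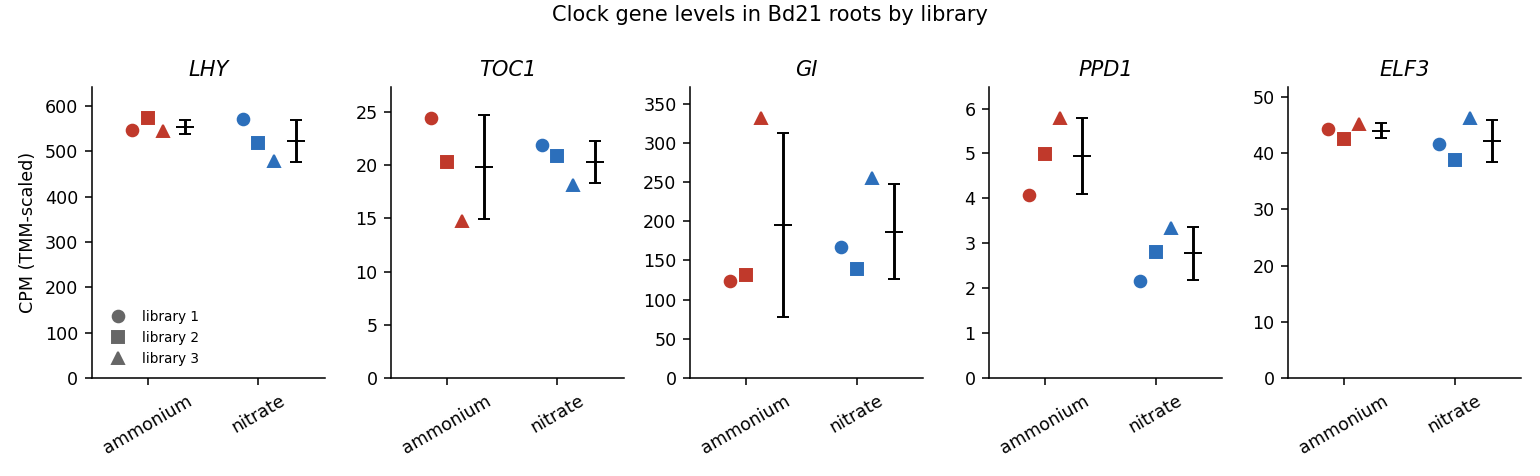
Level of each clock gene in CPM (TMM-scaled, axis from 0, a scale of its own per gene) in ammonium and nitrate roots; each point is 1 library, its shape gives the replicate number, and the black bar is the mean ± SD of 3 libraries. PPD1 separates the treatments (4.08 to 5.78 CPM in ammonium roots, 2.17 to 3.34 CPM in nitrate roots), and the GI points numbered 3 lie far above the others of their treatment.

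**Figure D2:**
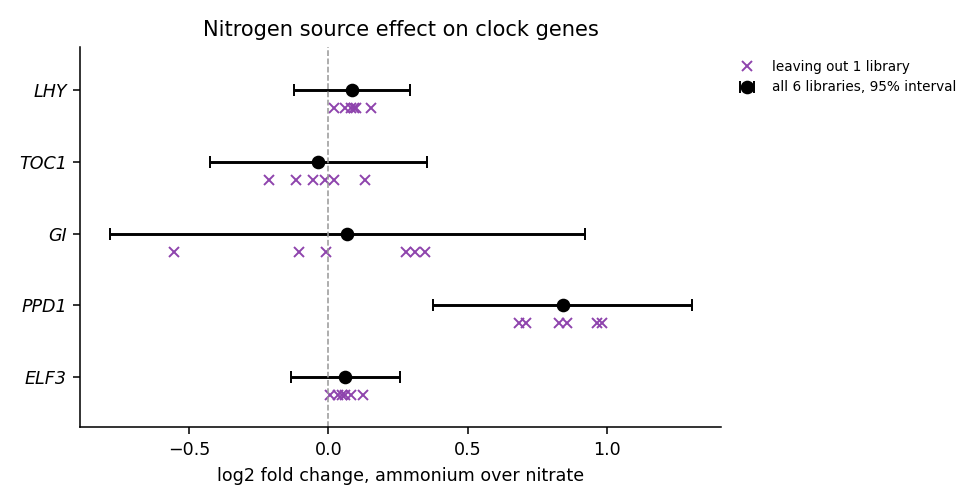
Log2 fold change, ammonium over nitrate, of each clock gene from the edgeR fit, with its 95% interval (black) and the 6 values from leaving out 1 library at a time (crosses). The PPD1 interval lies above 0 in full, and the crosses of GI and TOC1 fall on both sides of 0.

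The libraries numbered 3 differed from their treatment's other libraries most for GI. In ammonium roots, GI in library 3 was 2.59 times the mean of libraries 1 and 2, and in nitrate roots 1.67 times. At least a 1.5-fold excess of library 3 in both treatments was found for 159 of 23694 tested features (0.671%), and GI was the only clock gene among them. A deficit of that size in both was found for 1.16% of tested features and for 0 of the 5 clock genes. Whether the excess differed between nitrogen sources was not tested, since each treatment has 1 library of that number.

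A test of the replicate number was added after these values had been seen. It is an edgeR F test of 2 degrees of freedom in a fit that also holds nitrogen source. GI passed it (edgeR adjusted p = 0.032), at rank 155 of the 23694 tested features by p-value, and 1.02% of tested features were called. TOC1 (edgeR adjusted p = 0.31), PPD1 (0.52), ELF3 (0.82) and LHY (0.90) did not pass. Without nitrate replicate 2 the edgeR test called 0 features (1324 had an unadjusted p under 0.05), and the edgeR adjusted p of GI was 0.20. Without nitrate replicate 3 TOC1 was called as well, but so was a far larger share of all tested features than with 6 libraries. In these fits of 5 libraries, the number left with 1 library is assumed to vary like the others.

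For all 5 clock genes, library 3 was at the same end of its treatment's range in both treatments. It was the highest for GI, PPD1 and ELF3 and the lowest for LHY and TOC1. The same held for 30.3% of all tested features. PPD1 in library 3 was 1.28 times the mean of libraries 1 and 2 in ammonium roots and 1.34 times in nitrate roots, and ELF3 1.04 and 1.15 times. TOC1 in library 3 was 0.658 times the mean of the other libraries in ammonium roots and 0.847 times in nitrate roots, and LHY 0.973 and 0.880 times. In ammonium roots the gaps of LHY and ELF3 between library 3 and the nearest other library, 544 against 546 CPM and 45.2 against 44.3 CPM, were within counting error, so their place at the end of the range there is close to a tie. For PPD1, library 3 against library 2 rests on 160 against 139 reads in ammonium roots and 76 against 73 in nitrate roots. Counting alone gives each of these PPD1 libraries a coefficient of variation of 7.91% to 11.7%, so its place is not firm in either treatment. The same libraries stood apart on the second principal component over all features, and its part in these values was not tested. With no hour of harvest in the labels, the levels could not be set against the time of day.

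**Figure D3:**
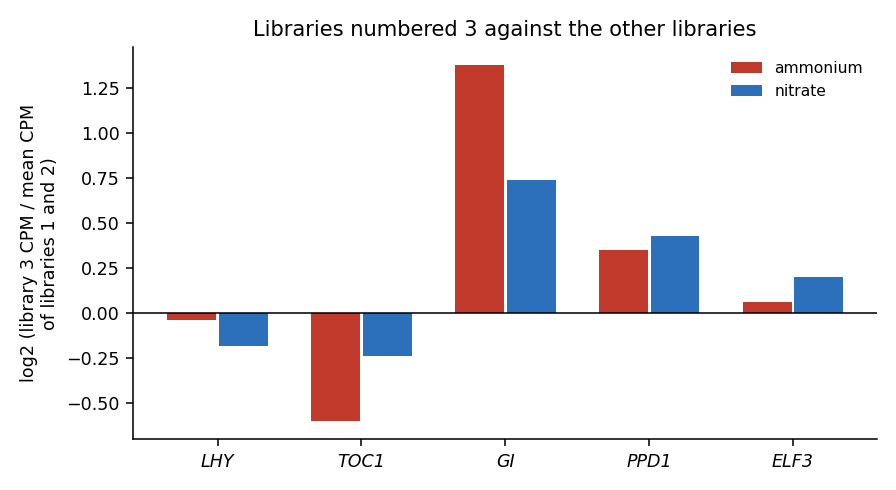
Log2 ratio of the CPM in library 3 to the mean CPM of libraries 1 and 2 of the same treatment, for each clock gene, in ammonium (red) and nitrate (blue) roots; each bar is 1 ratio and has no replicate error. GI stands at 1.37 and 0.74, TOC1 at -0.60 and -0.24, and both bars of each gene point the same way.

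The spread between pools of the same treatment was compared with that of other features as the standard deviation of log2 CPM over 3 libraries. For GI it was 0.79 in ammonium roots and 0.45 in nitrate roots, above 99.3% and 98.2% of the 2189 tested features with a mean of 100 CPM or more. Counting alone gives GI a coefficient of variation of 1.48% in either treatment, against an observed 60.1% in ammonium roots and 32.4% in nitrate roots. Counting error was thus a small part of the GI spread.

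TOC1 varied in ammonium roots (SD of log2 CPM 0.37, above 94.8% of the 11230 tested features from 10 to 100 CPM) and less in nitrate roots (0.14, above 60.8% of them). PPD1, at 0.25 in ammonium roots and 0.31 in nitrate roots, lay above 64.0% and 74.5% of the 7998 tested features from 1 to 10 CPM. LHY and ELF3 had a low spread in ammonium roots, 0.04 for each, above 21.5% and 16.3% of the features of their classes. In nitrate roots both stood at 0.13, above 56.6% and 53.7% of their classes. Over all tested features the median was 0.13 in ammonium roots and 0.15 in nitrate roots. It was exceeded by 3 of the 5 clock genes in ammonium roots (2 without ammonium replicate 3). In nitrate roots it was exceeded by 2 of the 5 (4 without nitrate replicate 1 or without nitrate replicate 2), and all 5 exceeded the median of their own abundance class.

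**Figure D4:**
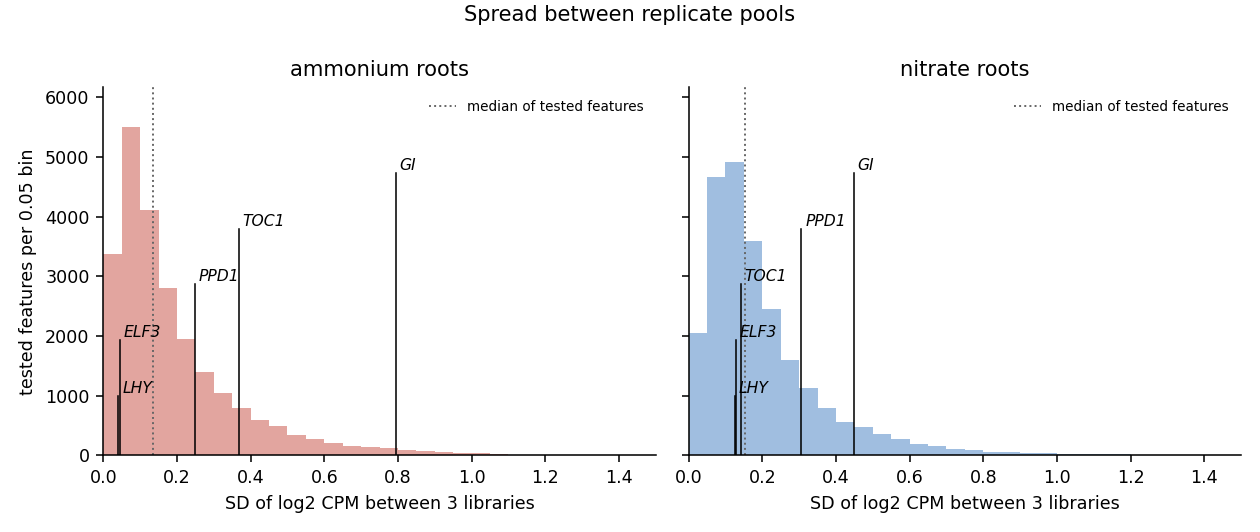
Distribution over tested features of the SD of log2 CPM between the 3 libraries of ammonium roots and of nitrate roots (features per bin of 0.05), with the clock genes marked by lines whose height has no meaning and the median of tested features dotted. The axis ends at 1.5. GI lies right of the other clock genes in both panels (0.79 and 0.45), and LHY and ELF3 lie left of the median in both.

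In Arabidopsis LHY peaks around dawn, and TOC1 and GI later in the day. Peak hours in these roots were not measured, and no peak hour is given here for PPD1. The log2 ratio of LHY to each of TOC1, GI and PPD1 was compared between treatments. Library scaling largely cancels out in this ratio, up to the prior count added to each gene, and gene length in its difference between libraries. The LHY to TOC1 log2 ratio was 4.48, 4.81 and 5.20 in ammonium roots, against 4.70, 4.63 and 4.72 in nitrate roots. The nitrate libraries were close together inside the wider ammonium range, and the mean difference was 0.15 (exact permutation test, two-sided p = 0.7, n = 3 each). It was 0.33 without ammonium replicate 1, -0.035 without ammonium replicate 3 and -0.016 with libraries 1 and 2 of each treatment only, so it has no stable direction.

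The LHY to GI log2 ratio was 2.14, 2.12 and 0.72 in ammonium roots, against 1.77, 1.90 and 0.91 in nitrate roots. Both libraries numbered 3 were low, and the treatments overlapped. The mean difference was 0.13 (exact permutation test, two-sided p = 0.6, n = 3 each). It changed sign without ammonium replicate 1 (-0.11), ammonium replicate 2 (-0.10) or nitrate replicate 3 (-0.18). It was 0.60 without ammonium replicate 3, 0.25 without nitrate replicate 1, 0.32 without nitrate replicate 2 and 0.29 with libraries 1 and 2 only.

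The LHY to PPD1 log2 ratio was 7.04, 6.82 and 6.54 in ammonium roots, against 7.99, 7.49 and 7.13 in nitrate roots. Every ammonium library was below every nitrate library. The mean difference was -0.74 (exact permutation test, two-sided p = 0.1, the smallest this design allows, n = 3 each). With libraries 1 and 2 of each treatment only it was -0.81. On the log2 scale LHY alone differed by 0.09 and PPD1 alone by 0.84 over all libraries. The ratio thus largely restates the PPD1 difference, from the same counts, and is not separate support for it. Over the 3 ratios the Benjamini-Hochberg adjusted values of these exact tests were 0.3 for PPD1 and 0.7 for TOC1 and GI.

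**Figure D5:**
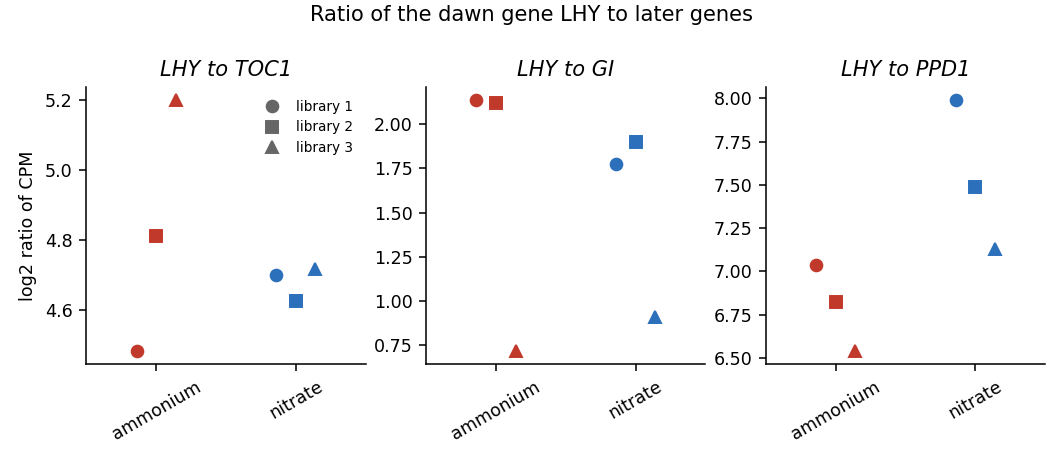
Log2 ratio of LHY CPM to TOC1, GI and PPD1 CPM in each library of ammonium and nitrate roots, 1 point per library with the shape giving the replicate number; each panel has its own axis, which does not start at 0. The LHY to GI ratio is lowest in the libraries numbered 3 of both treatments (0.72 and 0.91). The LHY to PPD1 ratio separates the treatments, as PPD1 alone does.

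The feature whose pattern over the 6 libraries was most like that of PPD1 was BRADI_4g15043v3, to which no name is paired here. Of the 16399 tested features that averaged 5 CPM or more, it was the one whose centred log2 CPM differed least from that of PPD1, by a root mean square of 0.09. BRADI_4g15043v3 stood at 11.4, 12.95 and 13.98 CPM in ammonium roots, against 5.59, 6.59 and 8.93 CPM in nitrate roots. Since this feature was picked for its likeness over the same libraries, these values describe it and are not tested. Counting alone gives PPD1 a coefficient of variation of 8.51% in ammonium libraries and 12.0% in nitrate libraries. The part of that error in the likeness was not tested. No such feature was sought for a falling clock gene, since none was called as lower.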

How the data were processed

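The deposited table holds raw read counts per feature for 6 root libraries. HISAT2 and HTSeq were used, per the submitters' processing notes. The genome build, the annotation, tool versions and the treatment of strand and multi-mapped reads were not given in the sources used here, so reads shared between related pseudo-response regulator genes (TOC1, PPD1 and their paralogs) or with antisense transcripts cannot be told apart. Neither the table nor RefSeq assembly Brachypodium_distachyon_v3.0 names the 5 loci (0 matched), and no sequence is shown. The members and lists were chosen with earlier results of these data known.

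The quasi-likelihood test of edgeR 4.0.16 (R 4.3.3) was run on all 6 libraries after filterByExpr (minimum count 10, minimum total 15, 5933 features removed) and TMM scaling, with nitrogen source as the only term and Benjamini-Hochberg adjustment over all tested features. The SE is the log2 fold change over the root of the F statistic. CPM used TMM-scaled library sizes, and log2 CPM a prior count of 2. The scripts were tested on simulated data. Libraries of the same treatment differed by more than counting noise (chi-square per degree of freedom at least 6.88), so each was kept as a sample.

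Named features were the 5 members and, for the called member with the largest change in each direction, the feature of most similar pattern. Both treatments carry replicate numbers 1 to 3. Deviations from treatment means correlated at 0.13, 0.21 and 0.11 across features between libraries of the same number. Between libraries of different numbers they correlated at -0.13 to -0.02. Centring on the mean of 3 libraries pushes these values below 0 when those of the same number lie above it. The numbers were taken as a possible pairing, on these data rather than on any label. The reported values come from the fit without it. A replicate block was tried as an alternative, as were other scalings, no filter, DESeq2 1.42.0, limma-voom (limma 3.58.1) and leaving out each library.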

Additional observations from a re-analysis of the deposited data

How the results depend on the processing

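In each of 14 alternatives 1 of the 5 clock genes, PPD1, was called between nitrogen sources. Over all tested features 29.6% to 45.8% were called in these alternatives, so this count did not exceed the background. The PPD1 log2 fold change ran from 0.68 to 0.98, and its adjusted p (edgeR, DESeq2 or limma-voom) was at most 0.041. LHY and ELF3 stayed above 0 and were not called in any of the 14. Fold changes that were not called changed sign for GI under limma-voom (-0.041), with the replicate block (-0.040) and with libraries 1 and 2 of each treatment only (-0.24), and for TOC1 (0.081) and the LHY to TOC1 difference (-0.016) with those libraries only. Leaving out 1 library gave -0.55 to 0.35 for GI, -0.21 to 0.13 for TOC1, -0.035 to 0.33 for the LHY to TOC1 difference and -0.18 to 0.60 for the LHY to GI difference. The block changed no call. With it the SE was 0.14 for GI, 0.11 for TOC1 and 0.15 for PPD1, against 0.38, 0.17 and 0.20 without it. For ELF3 the SE was 0.080 against 0.086, and for LHY 0.093 against 0.091. The edgeR adjusted p of PPD1 with the block was 0.0029. Against features of the same abundance class, the number of clock genes above the median spread in nitrate roots was 5 rather than 2, and leaving out 1 library gave 2 to 4 there and 2 to 3 in ammonium roots. For the replicate number, 242 of all tested features were called, 494 by the DESeq2 likelihood ratio test, 414 with no filter and 0 to 2925 when 1 library was left out. The clock genes among them then numbered 0 to 2, and 1 under the other scalings, with no filter and by DESeq2. The cause of these changes was not tested. The alternatives for the replicate number, for libraries 1 and 2 only and for the spread with 1 library left out were added after seeing the data. Counting error is largest for PPD1, the member with the fewest reads.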
